A study of Mus musculus with 36 samples.

Results

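Macrophages were followed through 33 genes of macrophages and monocytes, chosen by their symbols out of 53379 genes in the count tables, in mice that model translocation renal cell carcinoma, a kidney cancer. Each of the 33 symbols matched 1 gene. RNA was sequenced from 36 libraries of tissue fixed in formalin and embedded in paraffin. From 6 Sglt2-Cre; ASPSCR1-TFE3 LSL/+ mice came 11 libraries of kidney tumors, 4 of retro-orbital tumors, 3 of brain tumors and 4 of non-transformed kidney, while 6 control kidney libraries came from 3 Sglt2-Cre mice without the fusion. From fetuses there were 5 dysmorphic kidneys (Pax8-Cre; ASPSCR1-TFE3 LSL/+) and 3 age-matched control kidneys, labelled Pax8-Cre, which the series' design text gives as Pax8-Cre or ASPSCR1-TFE3 LSL/+. In both models, Cre driven by a renal epithelial promoter (Sglt2 in the proximal tubule, Pax8 in the renal epithelial lineage) removes a stop cassette and switches on the ASPSCR1-TFE3 fusion, so macrophages are host cells that are not targeted themselves. Ages were not given in the labels, and every adult group carried Sglt2-Cre. Libraries from the same mouse and tissue were summed, so n is the number of animals and a kidney tumor value is that of a mouse unless a single tumor is named, and levels are given in CPM, the count of a gene relative to all counts of that animal, on a scale shared by all groups.

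Macrophages are phagocytes that live in nearly every tissue and are replenished in part by monocytes from the blood. Their survival depends on the receptor Csf1r and its ligand Csf1, and the chemokine Ccl2 draws in monocytes that carry its receptor Ccr2. In the kidney they clear debris, take up antibody-coated material through Fc receptors and make complement C1q, and in tumors they are often among the most abundant leukocytes. In bulk tissue, a lower level of these transcripts through fewer macrophages and through less RNA per macrophage cannot be told apart.

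Each library held 80205573 to 121415057 counts. As a check of the labels, the summed level of 4 melanocytic genes that mark the fusion tumors (Gpnmb, Pmel, Mlana and Trpm1) was 3721 to 7427 CPM in kidney tumors, 3470 to 4796 CPM in brain tumors and 4743 to 6886 CPM in retro-orbital tumors, compared to 2.55 to 3.62 CPM in control kidneys. It was 112 to 479 CPM in the non-transformed kidneys, all above the controls. Gpnmb made up most of the sum in kidney tumors (mean 5045 CPM), beside Trpm1 at 317, Pmel at 109 and Mlana at 0.123 CPM. The macrophage genes were present in every group: their summed level was 373 to 455 CPM in control kidneys, 333 to 632 CPM in non-transformed kidneys, 550 to 2081 CPM in kidney tumors, 877 to 1725 CPM in retro-orbital tumors, 379 to 1651 CPM in brain tumors, 269 to 332 CPM in control fetal kidneys and 459 to 832 CPM in dysmorphic fetal kidneys. Marco and Vsig4, receptors of resident macrophages in other organs, were near or at 0 in the adult groups, with at most 0.155 and 1.52 CPM in the kidney tumors of any mouse.

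To ask which macrophage genes differ in tumors, kidney tumors (n = 6) were compared to control kidneys (n = 3). Of the 33 genes, 31 passed the filter on low counts, 14 rose and none fell (edgeR adjusted p under 0.05), while 12.5% of all 23578 genes tested rose and 6.51% fell. Of the 31, 29 had a positive log2 fold change. Their median was 1.58, beside 0.05 over all genes. The 14 genes were Trem2, Cd68, Ms4a7, Ccl2, Lyz2, Tyrobp, C1qa, Mpeg1, C1qb, Cx3cr1, C1qc, Cd14, Fcer1g and Aif1. Every tumor mouse was above every control mouse for 19 of the 31, as for 15.2% of all genes tested. The plot of fold changes against both kidney references shows how far Trem2 and Cd68 stood from the other genes.

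**Figure D1:**
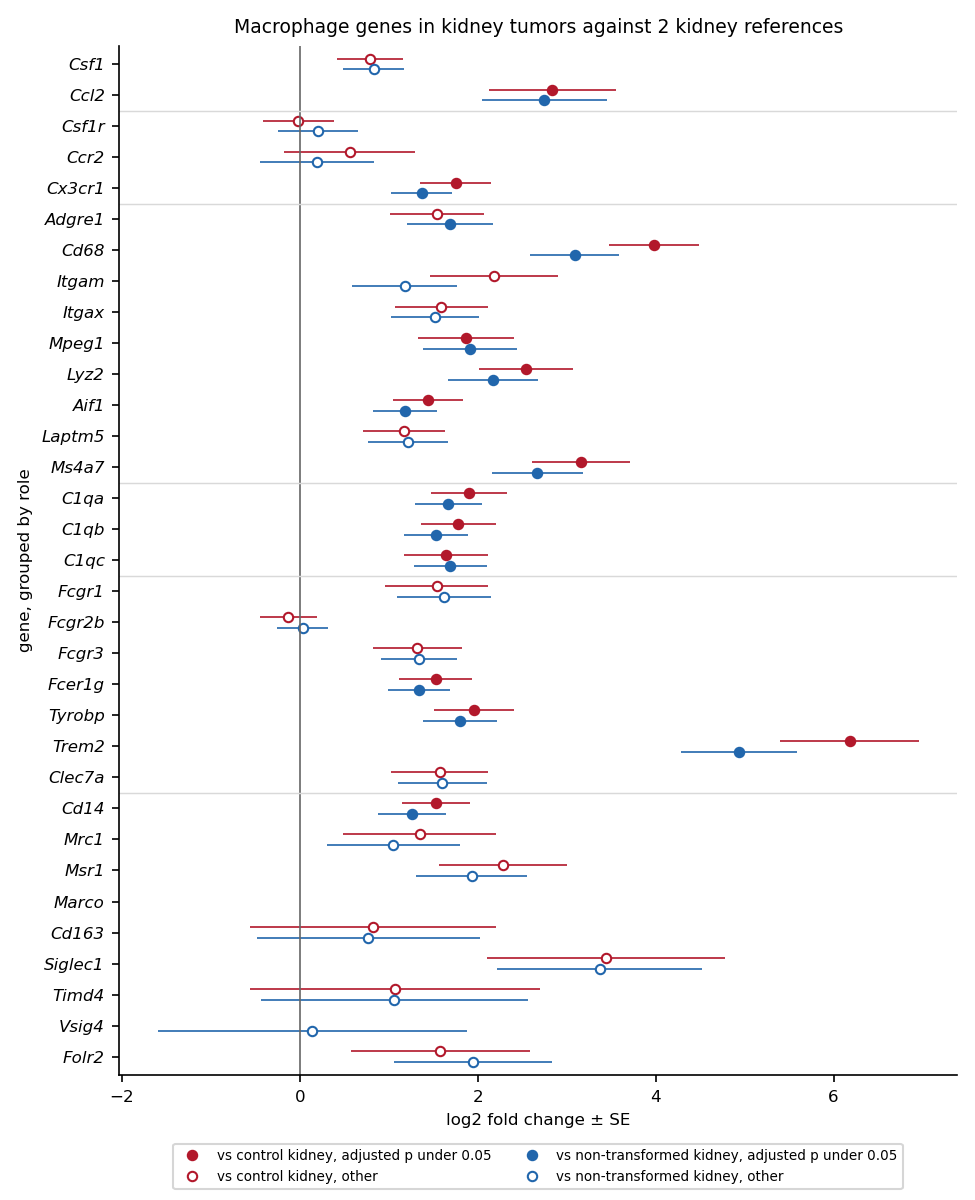
Log2 fold changes (x axis, ± SE) of the macrophage genes, grouped by role, in kidney tumors against control kidneys (red) and against non-transformed kidneys (blue), with filled points for an edgeR adjusted p under 0.05. Trem2 (6.18 and 4.94) and Cd68 (3.98 and 3.09) lie farthest to the right among the filled points, and Csf1r (-0.02 and 0.20) and Fcgr2b (-0.13 and 0.03) lie at 0. A missing point did not pass the filter on low counts.

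Trem2, a receptor for lipids and cell debris, changed most. Its level was 0.191, 0.0647 and 0.151 CPM in the 3 control kidneys, and 3.12 CPM at the lowest, 9.83 CPM at the median and 17.5 CPM at the highest in kidney tumors. The groups lay far apart (log2 fold change 6.18, SE 0.78, edgeR adjusted p 0.00134). Cd68, a glycoprotein of lysosomes and late endosomes that is abundant in macrophages, was 6.39, 7.85 and 7.45 CPM in control kidneys and 35.0, 105 and 169 CPM at the lowest, median and highest in tumors. Again no tumor overlapped a control (log2 fold change 3.98, SE 0.51, edgeR adjusted p 0.00141). Which cells made the Cd68 transcripts was not tested. Ms4a7, a membrane protein gene of mature macrophages, was 3.33, 3.79 and 2.87 CPM in control kidneys and 11.1, 30.7 and 45.9 CPM at the lowest, median and highest in tumors (log2 fold change 3.16, SE 0.55, edgeR adjusted p 0.00633). Trem2, Cd68 and Ms4a7 were the 3 genes that stayed past the threshold whichever mouse was left out. The count of 14 genes fell to 4, 3 and 3 without control mouse 1, 2 or 3, where the share of all genes called in either direction fell from 19% to 8.55%, 4.78% and 4.96% and the median log2 fold change of the macrophage genes was 1.57, 1.63 and 1.78. In DESeq2 the count was 22, with 30% of all genes called.

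Among the chemoattractants and growth factors, Ccl2 rose and Csf1 did not pass the test. Ccl2 was 1.03, 1.56 and 1.42 CPM in control kidneys and 2.20, 9.84 and 16.1 CPM at the lowest, median and highest in tumors (log2 fold change 2.84, SE 0.71, edgeR adjusted p 0.0252). Every tumor mouse lay above the controls, with mice 4 and 5 lowest at 2.20 and 3.01 CPM. For Csf1 the values were closer (log2 fold change 0.79, SE 0.37, edgeR adjusted p 0.152). Of the receptors, Cx3cr1, which binds the chemokine fractalkine and marks monocytes and resident macrophages, rose (log2 fold change 1.75, SE 0.40, edgeR adjusted p 0.0184). Ccr2 (log2 fold change 0.56, SE 0.74, edgeR adjusted p 0.611) and Csf1r (-0.02, SE 0.40, edgeR adjusted p 0.980) did not pass. Csf1r, the receptor on which most macrophages depend, was 92.1, 59.5 and 77.1 CPM in control kidneys and ranged from 40.3 to 132 CPM in tumors, around the control values on both sides.

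Of the 9 genes expressed broadly across macrophages, 5 rose, and the median over all 9 was 1.87 on the log2 scale. Lyz2, the lysozyme of myeloid cells, was 26.5, 26.8 and 17.3 CPM in control kidneys and 56.5, 131 and 251 CPM at the lowest, median and highest in tumors (log2 fold change 2.54, SE 0.53, edgeR adjusted p 0.0133). Mpeg1, a pore-forming protein of phagosomes, was 34.6, 53.4 and 59.7 CPM in control kidneys and 72.9, 157 and 384 CPM in tumors (log2 fold change 1.87, SE 0.54, edgeR adjusted p 0.0390). Neither gene had a tumor that overlapped a control. Aif1, the actin-binding protein also known as IBA1, rose by 1.44 (SE 0.39, edgeR adjusted p 0.0314). Adgre1, which encodes the antigen F4/80, was above the controls in 5 of 6 mice but did not pass (1.54, SE 0.53, edgeR adjusted p 0.0719). Laptm5, a lysosomal protein of blood cells (1.17), and the integrins Itgax (1.59) and Itgam (2.18) did not pass. Itgam shares 68.7% of its exonic bases with another annotated gene on the same strand, Gm49368, and its counts, at most 2.37 CPM in the kidney tumors of any mouse, are uncertain for that reason.

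All 3 chains of complement C1q rose together: C1qa by 1.90 (SE 0.43), C1qb by 1.78 (SE 0.42) and C1qc by 1.64 (SE 0.47) on the log2 scale, with edgeR adjusted p of 0.0184, 0.0218 and 0.0394. C1qa was 8.21, 10.4 and 11.1 CPM in control kidneys and 16.5, 33.5 and 56.5 CPM at the lowest, median and highest in tumors. Per kilobase of exon, C1qb made up 47.0% to 52.3% of the summed C1q level in kidney tumors and 47.9% to 50.7% in control kidneys, and C1qa made up 32.3% to 35.9% and 31.1% to 32.1%. The C1qb range of the controls lay within that of the tumor mice, while every tumor mouse was above every control for C1qa, and neither share was tested. Across the adult groups C1qc was 14.9% to 20.5% of that sum, compared to 23.0% to 27.5% in fetal kidneys, where every animal lay above every adult.

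Among the 7 genes of Fc receptors and of receptors that signal through immunoreceptor tyrosine-based activation motifs (ITAMs), Trem2 and both signalling adaptors rose. Tyrobp, the adaptor of Trem2, was 8.96, 11.4 and 10.7 CPM in control kidneys and 16.2, 34.6 and 70.8 CPM at the lowest, median and highest in tumors (log2 fold change 1.96, SE 0.45, edgeR adjusted p 0.0187). Fcer1g, the adaptor shared by activating Fc receptors, rose by 1.53 (SE 0.41, edgeR adjusted p 0.0316). Neither adaptor had a tumor that overlapped a control. The activating receptors Fcgr1 (1.54, edgeR adjusted p 0.0872) and Fcgr3 (1.32, edgeR adjusted p 0.0905) and the beta-glucan receptor Clec7a (1.57, edgeR adjusted p 0.0707) did not pass. Fcgr2b, the inhibitory Fc receptor, did not pass either (-0.13, SE 0.32, edgeR adjusted p 0.803), with 38.2, 45.0 and 42.7 CPM in control kidneys and 24.3 to 58.1 CPM in tumors.

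Only Cd14, the co-receptor for bacterial lipopolysaccharide, passed among the scavenger receptors and markers of resident macrophages, with a rise of 1.53 (SE 0.38, edgeR adjusted p 0.0248). Siglec1, a sialic acid-binding receptor, had the next largest fold after Cd68 but a wide error (log2 fold change 3.44, SE 1.34, edgeR adjusted p 0.0975). Every tumor mouse was above every control mouse for Siglec1, and the highest, 81.2 CPM in mouse 2, was far above the next at 14.9 CPM. The mannose receptor Mrc1 (1.35, SE 0.86), the haemoglobin scavenger receptor Cd163 (0.82, SE 1.38), the phosphatidylserine receptor Timd4 (1.07, SE 1.63), the folate receptor Folr2 (1.58, SE 1.01) and the scavenger receptor Msr1 (2.28, SE 0.72) did not pass. Folr2 shares 63.1% of its exonic bases with Gm10602 on the opposite strand, and whether the counting used strand is not given in the sources used here.

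The promoters of the genes that moved most were examined for letters bound by known factors, with motifs chosen after the values were seen. The RefSeq table (GRCm38.p6) held promoters for 25 of the 33 genes, and the 250 bases before the start were searched on both strands. The E-box CACGTG, which MiT/TFE factors such as TFE3 bind, was in 0 of 25 genes and in 6.86% of all 27025 genes of the table. The M-box TCATGTG, a related element of the same factors, was in 2 of 25 (C1qb and C1qc) and in 3.72% of all genes. The ETS core AGGAAGT was in 6 of 25 (Mrc1, C1qb, C1qc, Lyz2, Fcgr1 and Folr2) and in 8.8% of all genes, and the AP-1 element TGANTCA in 5 of 25 (Cd68, Itgax, Trem2, Ms4a7 and Folr2) and in 7.82%. ETS factors include PU.1, the master regulator of macrophages. Shown here are the 2 genes that rose most, Trem2 at chr17:48346151-48346400 (plus strand) and Cd68 at chr11:69666171-69666420 (minus strand), and C1qb at chr4:136886201-136886450 (minus strand) as a chain of C1q. They are printed 5′ to 3′ along the gene, and capitals mark the matches on either strand.
Trem2: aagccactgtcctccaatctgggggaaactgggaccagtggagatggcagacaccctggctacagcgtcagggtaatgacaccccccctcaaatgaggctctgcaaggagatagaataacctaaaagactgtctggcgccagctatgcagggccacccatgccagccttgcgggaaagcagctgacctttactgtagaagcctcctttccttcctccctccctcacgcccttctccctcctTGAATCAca
Cd68: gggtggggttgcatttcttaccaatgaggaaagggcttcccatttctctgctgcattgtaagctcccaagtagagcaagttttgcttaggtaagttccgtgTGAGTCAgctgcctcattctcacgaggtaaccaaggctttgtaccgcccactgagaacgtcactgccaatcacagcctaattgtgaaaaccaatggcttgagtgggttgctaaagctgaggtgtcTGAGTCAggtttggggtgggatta
C1qb: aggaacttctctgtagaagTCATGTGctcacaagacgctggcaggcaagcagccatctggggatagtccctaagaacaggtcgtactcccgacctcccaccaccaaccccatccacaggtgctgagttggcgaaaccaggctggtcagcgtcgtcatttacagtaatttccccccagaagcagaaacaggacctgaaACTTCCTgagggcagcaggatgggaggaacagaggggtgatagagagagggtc
The AP-1 match of Trem2 begins 9 bases before the start, and those of Cd68 begin 149 and 24 bases before it. In C1qb the M-box begins 231 bases and the ETS core 53 bases before the start. A match of letters is a description of the sequence and does not show that a factor binds there.

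**Figure D2:**
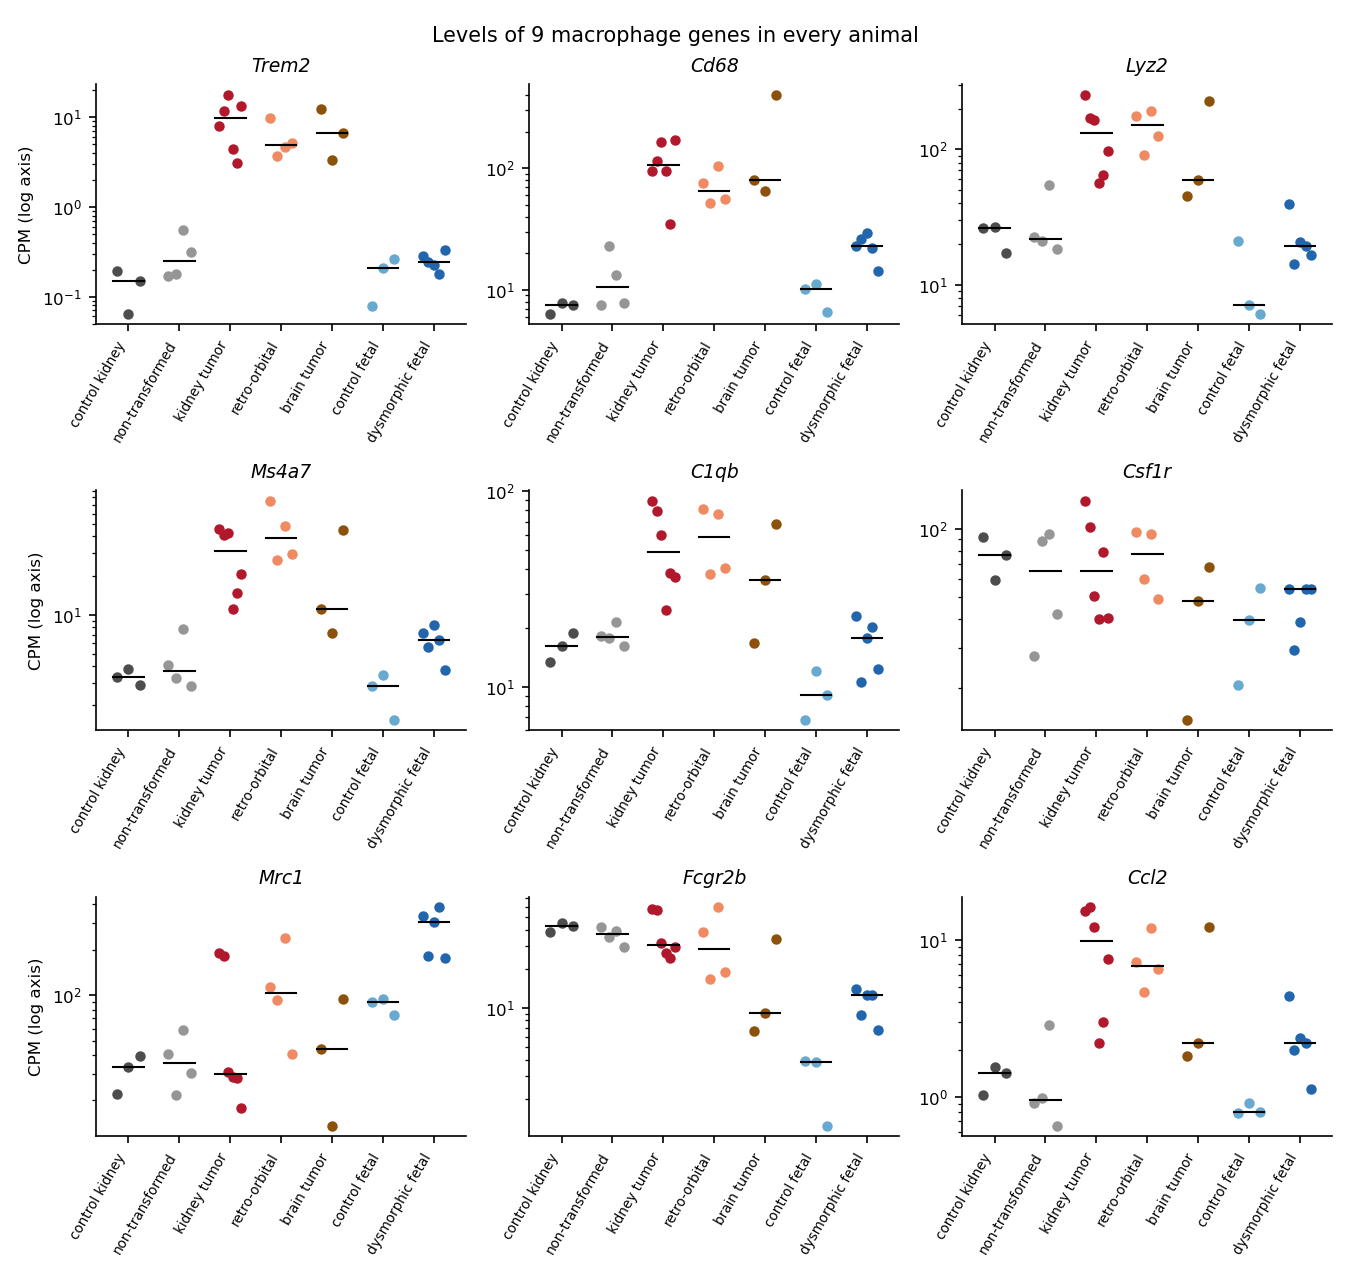
Levels in CPM (log axis) of 9 macrophage genes in every animal of the 7 groups, with a horizontal line at the group median. Trem2 and Cd68 separate the animals of all 3 kinds of tumor from those of both kidney references, Csf1r does not, and Mrc1 has its highest median in dysmorphic fetal kidneys.

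The kidney tumors differed widely among themselves. The summed level of the 33 genes was highest in mouse 1 at 2081 CPM and lowest in mouse 4 at 550 CPM, with mouse 1 highest for 22 of the 33 genes, mouse 2 for 8, and mouse 4 lowest for 20. From 5 of the mice there was a pair of kidney tumors each. In mouse 1, 27 of the 30 genes over 1 CPM were higher in the first tumor, and in mouse 2, 29 of 32 were higher in the second. In mouse 6, 26 of 29 were higher in the second tumor, in mouse 3, 20 of 28, and in mouse 4, 16 of 28, so the direction was shared by most genes in some pairs and divided in others. Cd68 differed widely within pairs. In mouse 4 it was 171 CPM in the first tumor and 18.6 CPM in the second, while Csf1r was 32.5 and 47.9 CPM and Lyz2 51.5 and 61.0 CPM in the same tumors. Trem2 ran opposite to Cd68 there, at 2.13 and 6.69 CPM. In mouse 3 Cd68 was 250 and 73.5 CPM and Trem2 was 25.4 and 9.40 CPM, while Lyz2 was 167 and 158 CPM.

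**Figure D3:**
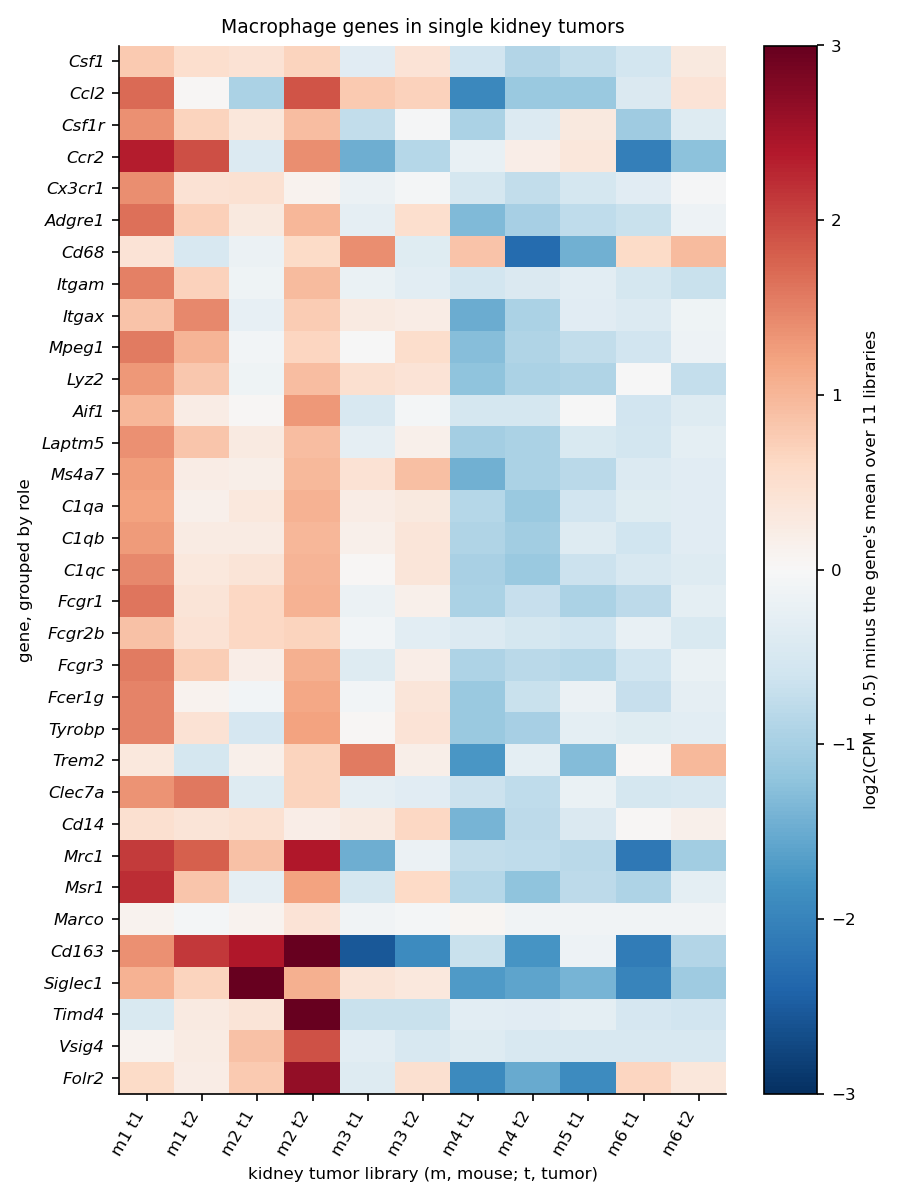
Heat map of the macrophage genes, grouped by role, in the 11 kidney tumor libraries, as log2(CPM + 0.5) minus the gene's own mean, so colors compare tumors within a gene and not genes with each other. Both tumors of mouse 1 and the second tumor of mouse 2 are red for most genes, those of mice 4 and 5 are blue, and Cd68 and Trem2 break the pattern in mice 3, 4 and 6.

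Other tissue in the tumor libraries moved with these levels. The summed level of 5 proximal tubule genes was 7316 and 7233 CPM in mice 4 and 5, which had the lowest macrophage sums of 550 and 643 CPM, and 623 to 2310 CPM in the other mice. In control kidneys it was 10613 to 11265 CPM. A list of 6 adipocyte genes (Adipoq, Plin1, Cidec, Lep, Retn and Cfd), added after the values were seen, summed to 232 CPM in the second tumor of mouse 1 and to 327 and 768 CPM in the tumors of mouse 2, compared to at most 5.11 CPM in the other kidney tumors. The second tumor of mouse 2, richest in adipocyte transcripts, was also highest for Cd163 (62.7 CPM), Mrc1 (261 CPM) and Timd4 (6.57 CPM), which mark tissue-resident macrophages, including those of fat. Siglec1 was instead highest in the first tumor of mouse 2, at 155 CPM compared to 17.1 CPM in the second. The first tumor of mouse 1, with the largest macrophage sum of 2529 CPM, held only 0.678 CPM of adipocyte transcripts. Without the libraries over 100 CPM of adipocyte transcripts, 7 of the 31 genes rose (14.3% of all genes called), Trem2, Cd68, Ms4a7, Lyz2, Tyrobp, C1qa and Cd14, and the median log2 fold change was 1.63. The part of fat or of retained tubules in the levels of single tumors was not tested.

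**Figure D4:**
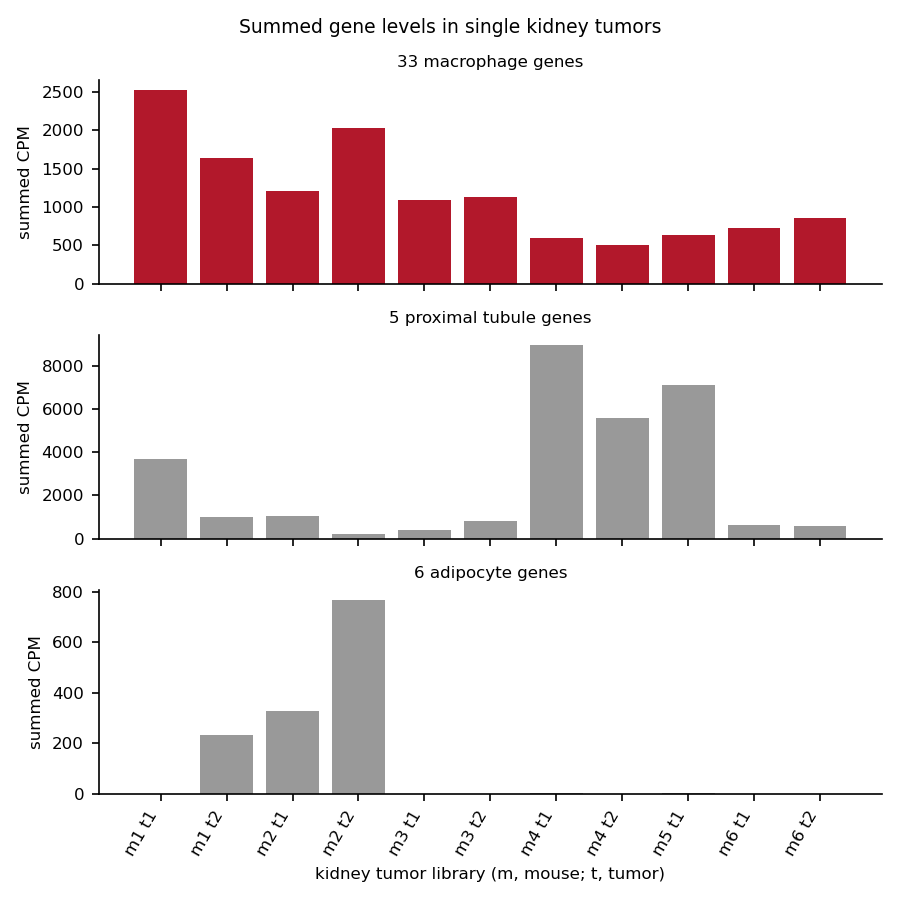
Summed CPM (bars, from 0) of the 33 macrophage genes, 5 proximal tubule genes and 6 adipocyte genes in each kidney tumor library. Macrophage sums are highest in the tumors of mice 1 and 2, tubule sums in those of mice 4 and 5, and adipocyte sums in the second tumor of mouse 1 and both tumors of mouse 2.

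Compared to non-transformed kidney tissue of the fusion mice (n = 4), kidney tumors gave much the same list. Of 32 genes tested, 15 rose and none fell, while 12.1% of all 21930 genes rose and 5.02% fell, and all 32 had a positive log2 fold change with a median of 1.53, beside -0.02 over all genes. The 15 were the 14 above and Adgre1. The tumors share these values with the comparison to control kidneys, so the comparisons are not independent. The groups did not overlap for 10 genes, as for 11.4% of all genes tested. Trem2 was 0.169, 0.178, 0.560 and 0.315 CPM in the non-transformed kidneys of mice 1, 3, 4 and 5 (log2 fold change 4.94, SE 0.65, edgeR adjusted p 0.00109). Cd68 was 7.51, 23.0, 13.4 and 7.74 CPM (3.09, SE 0.50, edgeR adjusted p 0.00325), and the tumor mice lay above all of these for both genes, although the second tumor of mouse 4 alone held 18.6 CPM of Cd68. Ms4a7 was 4.13, 3.25, 7.80 and 2.82 CPM, also below every tumor (2.67, SE 0.51, edgeR adjusted p 0.00764). Lyz2 was 22.7, 21.2, 54.6 and 18.3 CPM, with mouse 4 just under the lowest tumor mouse at 56.5 CPM (2.17, SE 0.51, edgeR adjusted p 0.0183). Ccl2 was 0.919, 0.980, 2.88 and 0.656 CPM and overlapped the tumors in mouse 4 (2.75, SE 0.70, edgeR adjusted p 0.0251). Adgre1 was 11.4, 14.3, 23.4 and 12.3 CPM, and mouse 4 again overlapped (1.69, SE 0.48, edgeR adjusted p 0.0379).

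These tissues came partly from the same mice. With the animal as a block, only Trem2 and Cd68 of the 15 were called (4.23% of all genes), and the median log2 fold change was 1.24. The count was 2 of 31 without mouse 1 and 2 of 32 without mouse 3, near the 6.4% and 5.59% of all genes called there, and was 10 without mouse 2 or 5 (12.7% and 17% of all genes). Non-transformed kidneys of mice 1 and 4 held 247 and 133 CPM of adipocyte transcripts, and without the adipocyte-rich libraries none of 32 genes was called (0.948% of all genes) while the median log2 fold change was 1.60.

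Between non-transformed and control kidneys, no macrophage gene of 31 was called, and 0.00952% of all 21019 genes were. At an unadjusted p under 0.05 there were 2, Itgam and Cd68, and DESeq2 called none. The median log2 fold change was 0.08. Cd68 (0.86, SE 0.37, edgeR adjusted p 0.425) and Trem2 (1.20, SE 0.58, edgeR adjusted p 0.460) had the largest folds apart from Itgam (0.99, SE 0.42, edgeR adjusted p 0.414). Mouse 4 was highest for 25 of the 33 genes among the non-transformed kidneys.

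To ask whether macrophage genes differ by tumor site, retro-orbital (n = 4) and brain tumors (n = 3) were compared to kidney tumors. No gene of 32 was called in retro-orbital tumors, while 17.7% of all 22136 genes were, and the median log2 fold change was 0.09. DESeq2 also called none, and 1 gene had an unadjusted p under 0.05. That gene was Cd14, with 4.49, 1.44, 7.17 and 3.05 CPM in the retro-orbital tumors of mice 2, 3, 5 and 6 and 3.70, 9.81 and 11.7 CPM at the lowest, median and highest in kidney tumors (log2 fold change -1.15, SE 0.47, edgeR adjusted p 0.118). Cd68 was 75.4, 51.7, 105 and 55.4 CPM in retro-orbital tumors, within the range of the kidney tumors (-0.68, SE 0.40, edgeR adjusted p 0.261). Leaving out mouse 5, whose retro-orbital tumor was highest for 20 of the 33 genes, brought Cd68 past the threshold as lower, and leaving out mouse 1 brought Clec7a past it as higher. Each is a single gene, given without the share of all genes called in that fit, and is not read as a difference between sites. Neutrophil genes differed where macrophage genes did not pass: 5 of 10 tested neutrophil genes were higher in retro-orbital tumors. The summed neutrophil level was 43.3 to 296 CPM compared to 13.3 to 34.9 CPM in kidney tumors. Among the 5 was Ltf, at 61.4 ± 121 CPM (SD, n = 4) in retro-orbital tumors, a spread wider than its mean. Only 2 of the 4 lay above all kidney tumors for Ltf, and its source was not tested.

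In brain tumors no gene of 33 was called in the comparison to kidney tumors (8.74% of all 23391 genes were called), with 28 of the 33 log2 fold changes negative and a median of -0.44. In this comparison 2 genes had an unadjusted p under 0.05, Cd14 and Folr2, and DESeq2 called both as lower. Cd14 was 0.266, 1.24 and 3.76 CPM in the brain tumors of mice 1, 2 and 4, and only the last reached into the kidney tumor range (log2 fold change -2.25, SE 0.76, edgeR adjusted p 0.0924). Brain tumors were far from alike: the summed level of the 33 genes was 379 CPM in mouse 1, 528 CPM in mouse 2 and 1651 CPM in mouse 4, which was highest for 27 of the 33. The brain tumor of mouse 4 also held the highest Cd68 of any animal, 397 CPM compared to 79.8 and 65.2 CPM in the brain tumors of mice 1 and 2. Trem2 did not follow that order, at 12.5 CPM in mouse 1, 3.32 CPM in mouse 2 and 6.75 CPM in mouse 4. Without mouse 4, Cd14 and Fcgr2b were called as lower (6.36% of all genes were called) and the median was -1.34. Over all animals left out in turn the median ranged from -1.34 to 0.12, so its direction depended on the animals.

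Brain has its own macrophages, the microglia, which were examined through 9 genes. Among them only Sall1, a transcription factor gene that kidney tissue also expresses, was called, and it was lower in brain tumors than in kidney tumors (log2 fold change -2.34, SE 0.53, edgeR adjusted p 0.0324). P2ry12, a purinergic receptor of resting microglia, was 9.67 ± 9.61 CPM (SD, n = 3) in brain tumors and 3.75 ± 1.63 CPM (n = 6) in kidney tumors (1.46, SE 0.63, edgeR adjusted p 0.169). Tmem119 (-1.35) and Olfml3 (-1.45) went the other way without a call. Of the 9 log2 fold changes 5 were positive and 4 negative, with a median of 0.03. Summed neural genes were 119, 949 and 297 CPM in the brain tumors of mice 1, 2 and 4, compared to 9.59 to 65.4 CPM in kidney tumors, and how far brain tissue set the macrophage levels was not tested. Brain tumors compared to retro-orbital tumors gave no called gene of 32 (1.73% of all 21037 genes), none with an unadjusted p under 0.05 and none in DESeq2. There 29 log2 fold changes were negative, with a median of -0.63, and Cd68 was among the others (1.34, SE 0.64, edgeR adjusted p 0.280). Over animals left out in turn that median ranged from -1.31 to -0.26. Without mouse 4, Adgre1 and Mpeg1 were called as lower in brain tumors (4.79% of all genes were called).

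In the Pax8-Cre model, 2 of 32 genes tested rose in dysmorphic (n = 5) compared to control (n = 3) fetal kidneys and none fell, while 2.4% of all 22690 genes rose and 0.269% fell. These were Mrc1 and Adgre1. Of the 32, 28 had a positive log2 fold change, with a median of 1.0 beside -0.04 over all genes, and 14 separated the groups as higher, as for 10.6% of all genes. Mrc1, the mannose receptor of fetal and tissue-resident macrophages, was 90.5, 94.6 and 73.7 CPM in control and 334, 182, 305, 382 and 175 CPM in dysmorphic kidneys (log2 fold change 1.63, SE 0.30, edgeR adjusted p 0.0387). Adgre1 was 10.01, 11.3 and 8.81 CPM in control and 28.2, 18.1, 21.5, 28.9 and 16.4 CPM in dysmorphic kidneys (1.12, SE 0.23, edgeR adjusted p 0.0483). Dysmorphic fetuses 2 and 5 were lowest for both genes, and no fetus overlapped a control.

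Genes short of the threshold had similar folds. Laptm5 was 9.69, 9.53 and 8.09 CPM in control and 32.6, 14.8, 21.5, 27.9 and 18.0 CPM in dysmorphic kidneys (log2 fold change 1.29, SE 0.27, edgeR adjusted p 0.0513). Cd68 was 10.2, 11.3 and 6.54 CPM in control and 23.0, 26.4, 29.5, 22.2 and 14.4 CPM in dysmorphic kidneys (1.26, SE 0.28, edgeR adjusted p 0.0567). Csf1 was 5.41, 7.45 and 7.05 CPM in control and 17.9, 11.1, 16.8, 15.1 and 10.1 CPM in dysmorphic kidneys (1.05, SE 0.25, edgeR adjusted p 0.0651). For each of these every dysmorphic kidney was above every control. Fcgr2b, the inhibitory Fc receptor, was 3.88, 3.83 and 1.24 CPM in control and 14.0, 8.78, 12.6, 12.6 and 6.75 CPM in dysmorphic kidneys (1.83, SE 0.43, edgeR adjusted p 0.0672). Msr1 was 2.31, 4.68 and 3.08 CPM in control and 11.2, 7.02, 10.8, 8.59 and 5.75 CPM in dysmorphic kidneys, again without overlap (1.32, SE 0.33, edgeR adjusted p 0.0730). Trem2 was low in every fetal kidney, at 0.0791 to 0.265 CPM in control and 0.178 to 0.33 CPM in dysmorphic kidneys.

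The fetal count depended on the fit. DESeq2 called 15 genes as higher (12% of all genes were called), sex as a covariate left none (0.022%), and with the title prefix as a block both Mrc1 and Adgre1 lost their call while Cd68 gained one (1.8%). Leaving out 1 of the 8 fetuses at a time ended both calls for 6 of them, and gave 3 and 9 called genes without dysmorphic fetus 2 and 5, with 5.58% and 5.12% of all genes called. Other cell types differed in the same kidneys: summed mast cell genes were 345 to 1720 CPM in dysmorphic and 28.0 to 272 CPM in control kidneys, though none of the 6 was called, skeletal muscle genes were 2501 to 5728 compared to 1067 to 1265 CPM with 5 of 5 called as higher, and proximal tubule genes were 22.2 to 816 compared to 1104 to 1328 CPM. Fcer1g is also expressed by mast cells. The part of these tissues in the macrophage levels was not tested.

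Tumors and fetal kidneys were then compared in their response to the fusion, as the log2 fold change in kidney tumors minus that in dysmorphic fetal kidneys. Of 33 genes, 3 differed as larger in kidney tumors (6.87% of all 24444 genes did) and 1 as smaller (2.07%). Both counts were near these shares, so they are not read as a result about the macrophage genes as a set. Trem2 differed by 5.83 (SE 0.83, edgeR adjusted p 0.000425), from 6.18 in tumors and 0.40 in fetal kidneys. Cd68 differed by 2.77 (SE 0.56, edgeR adjusted p 0.00669), although its fold was positive in both, at 3.98 and 1.26. Mpeg1 differed by 2.26 (SE 0.62, edgeR adjusted p 0.0355), with -0.34 in fetal kidneys. Fcgr2b went the other way, with a difference of -1.91 (SE 0.55, edgeR adjusted p 0.0419), from -0.13 in tumors and 1.83 in fetal kidneys. Trem2 and Cd68 stayed past the threshold whichever animal was left out. The models also differ in age and Cre driver, which cannot be told apart from the tissue here.

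**Figure D5:**
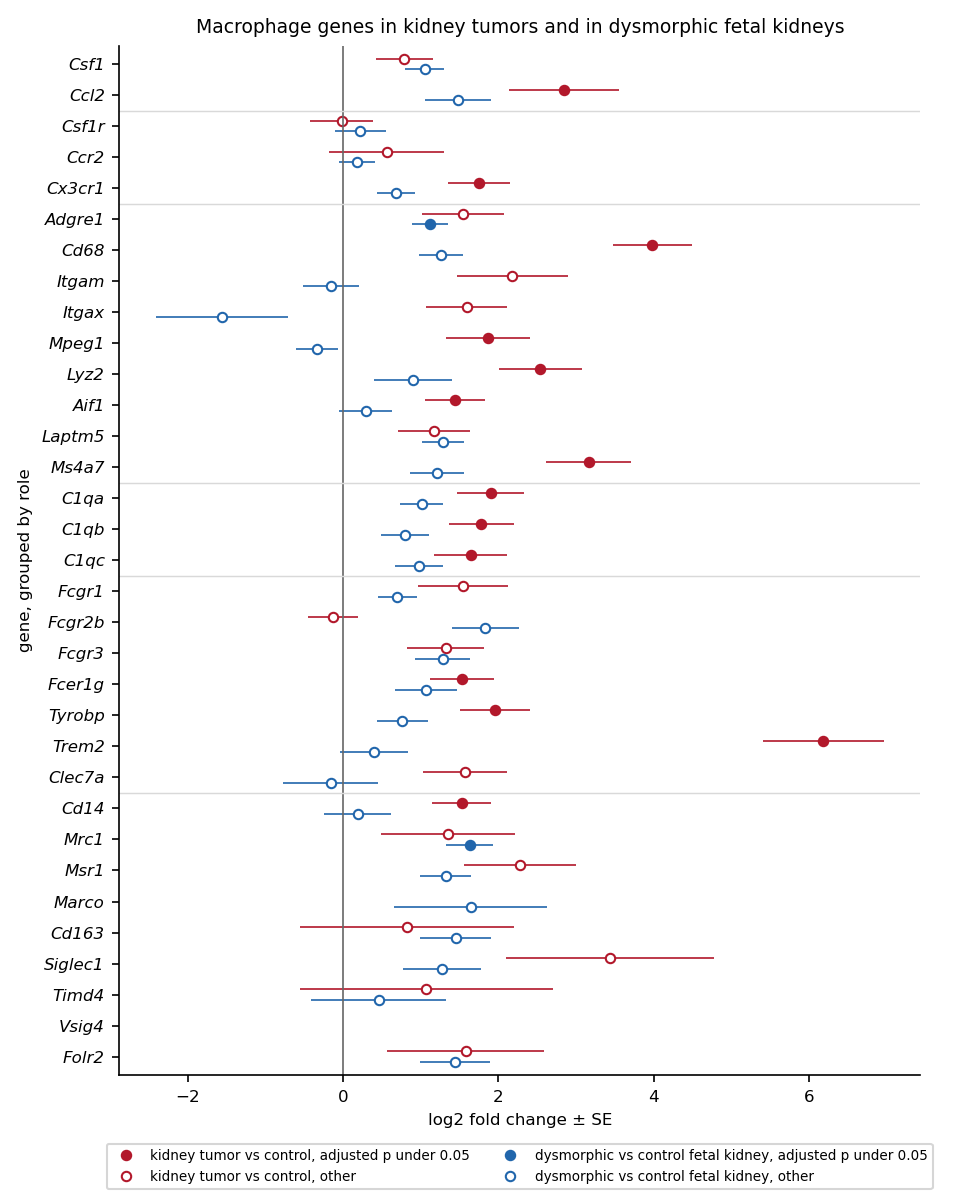
Log2 fold changes (x axis, ± SE) of the macrophage genes in kidney tumors against control kidneys (red) and in dysmorphic against control fetal kidneys (blue), grouped by role, with filled points for an edgeR adjusted p under 0.05. The tumor and fetal points lie farthest apart for Trem2 (6.18 and 0.40), and Fcgr2b is the one gene whose difference between the models was called as smaller in tumors.

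Compared per kilobase of exon, the leading macrophage transcripts also differed by tissue. In control kidneys Lyz2 (17.9 CPM per kilobase), Tyrobp (15.5) and C1qb (14.9) led, and Cd68 was number 11 at 5.75. In kidney tumors Lyz2 (102) and Cd68 (89.4) led, and the source of the Cd68 transcripts was not tested. In dysmorphic fetal kidneys Mrc1 (43.2) and Fcgr3 (28.3) led, and in control fetal kidneys Tyrobp (15.2) and Mrc1 (13.5). These ranks are group means with no test, and the exon lengths are those of the annotation, not of the transcripts used.

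Genes around the macrophage program were examined as lists in the comparison of kidney tumors to control kidneys, in which 12.5% of all genes rose and 6.51% fell. Of 7 macrophage transcription factors, Cebpb rose (log2 fold change 2.31) and Maf (-1.11) and Nr1h3 (-0.83) fell, while Spi1, which encodes PU.1, was not called (1.22, SE 0.53, edgeR adjusted p 0.126). Of 12 growth factors, chemokines and receptors, 5 rose: Csf2ra (1.42) and Csf2rb (1.66), receptor chains for the growth factor GM-CSF, Ccl3 (1.83), Ccl12 (2.27) and Ccr1 (2.26). Csf2, which encodes GM-CSF, passed the filter on low counts only through the tumors and is not counted, since it was close to 0 in the 3 control mice (mean 0.00296 CPM, SD 0.00513), while the 6 tumor mice had a mean of 0.0784 CPM (SD 0.0396). Of 8 activation genes, 3 rose: Nos2 (1.88), Chil3 (4.69) and Tgfb1 (1.80). Nos2 is used as a marker of classical activation, and Chil3 as a marker of alternative activation. Of 16 lysosomal and lipid-handling genes, 11 rose, led by Gpnmb (11.21, SE 0.55), Fabp5 (4.40) and Lgals3 (3.84), with cathepsins Ctsb, Ctsd, Ctsk and Ctss and the lipid carrier Apoe (2.13). Gpnmb is also a product of the tumor cells, and which cells made the lysosomal transcripts was not tested. In dysmorphic fetal kidneys none of 7 factors, 12 signals or 6 activation genes tested was called, and 4 of the 16 lysosomal and lipid-handling genes rose (2.4% of all genes did), Ctsk (2.29), Lpl (2.03), Fabp5 (1.43) and Apoe (1.07).

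Other leukocytes did not all follow, beside the same 12.5% of all genes that rose. None of 7 pan-leukocyte genes was called in kidney tumors compared to controls, although all 7 had a positive log2 fold change with a median of 0.93, and none of 9 T and NK cell genes (median 0.01) or 6 dendritic cell genes (median -0.62) was called. The neutrophil genes Ly6g and Ngp were close to 0 in controls (means of 0.00781 and 0.00296 CPM) and passed the filter only through the tumors. Leaving them out, of 7 neutrophil genes 5 rose, and the summed neutrophil level was 13.3 to 34.9 CPM compared to 4.53 to 6.88 CPM. The mast cell gene Fcer1a (control mean 0.0246 CPM) is left out for the same reason. Of the other 5 mast cell genes Cpa3, Tpsb2 and Cma1 rose. All 6 mast cell genes summed to 5.89 to 32.4 compared to 1.98 to 2.85 CPM. Of 7 B and plasma cell genes, Cd22 alone rose (2.37), a share near that over all genes. Of the 9 genes of the microglia list, Fcrls (4.12), P2ry13 (2.64) and Gpr34 (1.76), which other macrophages can also express, rose in kidney tumors. Siglech (-0.51), Sall1 (-0.49) and Olfml3 (-0.47) had negative log2 fold changes without a call, and the median of the list was 0.23. Red cell genes (median -0.31) and proximal tubule genes (median -2.04) included none called. Of 5 neural genes 1 rose, of 4 tested nephron progenitor genes 2 rose, and of 5 skeletal muscle genes (median 3.99) and 6 adipocyte genes (median 3.56) none was called.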

How the data were processed

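The libraries were of total RNA and stranded, with ribosomal RNA left in, per the labels. The authors deposited raw counts per gene in a table for each model, with no normalization. Their processing notes name STAR 2.5.2a, Bowtie2 and GRCm38 (mm10), and the counter and annotation were not given in the sources used here. Between 79.04% and 84.33% of counts from 1 to 20 were even in each library, so halved counts were an alternative, and counting floors cover counting error only. Symbols, coordinates and exon lengths came from GENCODE M21, which matched 53274 of 53379 genes. Members were found by symbol. The members and lists were chosen with earlier results of these data known. Up to 8 members per comparison are given in every animal, those called with the largest fold and then those with the smallest p. Any gene of the 18 other lists could be named (1 gene of the activation list is not reported here), and the adipocyte list and the motifs were chosen after the values were seen.

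Where a mouse gave several libraries of a group, their counts were added (same-mouse libraries were checked and were not duplicates). Each comparison was fitted over all genes with edgeR 4.0.16 in R 4.3.3 (TMM, filterByExpr, quasi-likelihood F-test), with Benjamini-Hochberg adjusted p under 0.05 called. SE was taken from the log2 fold change and its F statistic (absolute value over the root of F). Nothing says that fetuses came from separate litters, so p-values measure the spread between these samples. Tissues of the same mouse pair the samples, and across genes their deviations from the group means had r of -0.047 to 0.162 for kidney tumors with non-transformed kidneys, 0.253 to 0.323 with retro-orbital and -0.077 to -0.058 with brain tumors. In simulated data, edgeR recovered 8% of 2-fold and 58% of 4-fold changes for kidney tumors against controls (3 false calls among 23024 genes) and 1% and 39% for the fetal groups (0 false among 22146). DESeq2 1.42.0 recovered 28% and 84% (90 false), and 18% and 73% (82 false). Alternatives were RLE and upper quartile factors, DESeq2, no filter, a mean of at least 1 CPM, halved counts, every library as its own sample, a joint fit of all groups, the animal or title prefix as a block, and each animal left out. Sex, read from Y-linked transcripts over 50 CPM, and the removal of adipocyte-rich libraries were added after the data were seen.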

Additional observations from a re-analysis of the deposited data

Results flagged for a closer look

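Among 132 levels of the 33 genes in the 4 groups of 4 to 6 animals, 20 had an animal that stood far from the rest of its group by Dixon's ratio, where chance flags about 1 in 20 groups. Genes of an animal moved together, so the 20 are not independent of each other and their number is not read as an excess. In kidney tumors 6 of them were mouse 2, all scavenger or resident-type genes: Cd163 at 42.4 CPM (next 12.3), Siglec1 at 81.2 CPM (next 14.9), Timd4 at 3.78 CPM (next 0.276), Folr2 at 12.6 CPM (next 4.11), Vsig4 at 1.52 CPM (next 0.301) and Marco at 0.155 CPM (next 0.0485). Mouse 1 stood out for Ccr2 at 149 CPM (next 58.7) and Clec7a at 17.7 CPM (next 7.33).

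The non-transformed kidney of mouse 4 was high for Lyz2 at 54.6 CPM, Fcgr3 at 14.6 CPM, Fcer1g at 11.1 CPM and Ccl2 at 2.88 CPM. The retro-orbital tumor of mouse 5 was high for Vsig4 at 0.455 CPM and Marco at 0.0546 CPM, and that of mouse 6 was low for Siglec1 at 4.23 CPM (next 8.98). Dysmorphic fetus 1 was high for Lyz2 at 39.7 CPM, Timd4 at 8.56 CPM (next 2.5), Vsig4 at 0.793 CPM and Marco at 0.459 CPM, and dysmorphic fetus 5 for Itgax at 1.99 CPM.

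In the edgeR interaction test, the fold in kidney tumors and that in dysmorphic fetal kidneys differed for Trem2 (difference 5.83), Cd68 (2.77), Mpeg1 (2.26) and Fcgr2b (-1.91).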

How the results depend on the processing

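Of the genes called in a comparison, none changed direction under any alternative, and 460 of 614 recomputed values kept their call while 154 lost it. Against control kidneys, 14 genes were called (19% of all genes in either direction), 22 in DESeq2 (30%), 24 with every library as its own sample (44.7%), 7 without adipocyte-rich libraries and 3 to 19 when an animal was left out. Against non-transformed kidneys, 15 were called (17.1%), 2 with the animal as a replicate block (4.23%), 0 without adipocyte-rich libraries (0.948%) and 2 to 18 when an animal was left out. For retro-orbital against kidney tumors the range over left-out animals was 0 to 1, and the block changed no call. For brain against kidney tumors, 2 genes were called in DESeq2 (21.9%), 1 with every library as its own sample (18.2%), 2 in the joint fit (26%) and 0 to 2 over left-out animals, with none under the block. Brain against retro-orbital tumors gave 0 to 2, and the block could not be fitted there because 1 mouse was shared. Fetal calls went from 2 (2.67%) to 15 in DESeq2 (12%), 4 with a stricter filter, 1 with upper quartile factors, 1 without a filter, 1 with the title prefix as a replicate block, 0 in the joint fit, 0 with sex as a covariate and 0 to 9 over left-out fetuses. The difference between the models was called for 4 genes, 2 in the joint fit and 2 to 6 over left-out animals. Non-transformed against control kidneys gave 0 throughout. Where a count here stands without the share of all genes called, its change is not read as one of the macrophage genes. Beyond the alternatives' own construction (fewer samples or fewer genes), the cause was not tested. Depth limits Marco and Vsig4, which had few counts in most adult libraries, and with 3 controls most simulated 2-fold changes were missed.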
